A study of Mus musculus with 6 samples.

Results

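Transcript levels of the enzymes that methylate lysine 4 of histone H3 (H3K4), and of the subunits that these enzymes share, were compared between the hippocampus of mice lacking the H3K4 demethylases KDM1A and KDM5C and that of wild-type (WT) mice. The set holds 10 genes, chosen by name as the KMT2/SETD1 enzymes (Kmt2a, Kmt2b, Kmt2c, Kmt2d, Setd1a and Setd1b), the core subunits Wdr5, Ash2l and Rbbp5, and the CpG-binding subunit Cxxc1. All 10 were found by symbol among the 48795 identifiers of the count table and all 10 had enough reads to be among the 16861 genes tested. The double knockout (KO, labelled ifKO) carried Kdm1a f/f, Kdm5c f/f and CamKIIα-CreERT2, a recombinase whose promoter is active in principal neurons of the forebrain. Both groups, kept on a C57BL/6J background, received tamoxifen (TMX) at 2 to 3 months of age. Recombination removes a pair of exons from each demethylase gene, so the remaining exons can still be counted; the age at dissection is not given in the labels. The labels do not say whether WT mice carried the recombinase or floxed alleles, so an effect of the recombinase cannot be told apart from that of the deletions, nor can the effect of one deletion from that of the other. Polyadenylated RNA of 3 libraries per group was sequenced. Whether each library stands for its own animal is not given in the labels. The p-values therefore measure only the spread between these samples, which may be technical.

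H3K4 methylation marks active and poised regulatory DNA: monomethylation is typical of enhancers and trimethylation of promoters. Each enzyme carries a catalytic SET domain that is weakly active until it binds a module of WDR5, RBBP5, ASH2L and DPY30. KDM1A and KDM5C remove the methyl groups that these enzymes add, and disabling variants of several of the enzymes or of KDM5C cause intellectual disability in humans. CXXC1 and the CXXC domains of KMT2A and KMT2B bind DNA that holds unmethylated CpG, which is how SETD1 complexes and these enzymes are known to be held at CpG-rich promoters.

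The promoter sequences available for the set were rich in CG. The reference promoter windows of RefSeq (GRCm38.p6), which run from 250 bases before to 50 bases after a start, covered 6 of the 10 genes. The dinucleotide CG, which reads the same on both strands, occurred 56 times in the window of Kmt2c, 36 times in that of Kmt2a and 35 times in that of Setd1a. It occurred 27 times in the window of Kmt2d, 22 times in that of Wdr5 and 16 times in that of Rbbp5. The median over all 32851 windows of this length was 7, and 33% of them held at least as many as Rbbp5 while 0.195% held at least as many as Kmt2c. A match to these letters is a description of the window and not of binding. The windows with the most and the fewest are shown, Kmt2c at chr5:25498734-25499033 on the minus strand and Rbbp5 at chr1:132477117-132477416 on the plus strand, 5′ to 3′ with each CG in capitals.
Kmt2c: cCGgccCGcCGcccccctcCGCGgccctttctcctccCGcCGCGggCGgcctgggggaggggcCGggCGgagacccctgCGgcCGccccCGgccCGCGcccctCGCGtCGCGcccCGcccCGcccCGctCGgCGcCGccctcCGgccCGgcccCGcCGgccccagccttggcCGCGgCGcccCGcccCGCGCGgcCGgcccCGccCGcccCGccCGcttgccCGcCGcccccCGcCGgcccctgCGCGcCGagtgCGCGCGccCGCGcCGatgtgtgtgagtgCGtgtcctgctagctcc
Rbbp5: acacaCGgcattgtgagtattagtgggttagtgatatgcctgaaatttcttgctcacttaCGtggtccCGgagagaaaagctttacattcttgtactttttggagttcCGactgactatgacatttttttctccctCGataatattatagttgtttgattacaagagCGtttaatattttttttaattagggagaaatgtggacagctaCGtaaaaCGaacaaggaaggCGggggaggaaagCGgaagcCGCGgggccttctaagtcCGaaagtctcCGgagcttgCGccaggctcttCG

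Reads of Setd1a may have been counted over only part of its exons, which would bear on its level and was not tested. Gm49388, a protein-coding read-through gene on the same strand, shares 3.52 kb or 51.8% of the annotated exon bases of Setd1a. It was listed with 0 counts in all 6 libraries although Setd1a, with the same bases, had 672 to 790 counts. HTSeq leaves out reads that fall on more than one gene unless told otherwise, and its setting is not given in the sources used here. The sharing starts inside exon 7 of the 19 exons of the main Setd1a transcript, shown at chr7:127785578-127785637 (GRCm38, plus strand) with the shared bases in capitals.
Setd1a: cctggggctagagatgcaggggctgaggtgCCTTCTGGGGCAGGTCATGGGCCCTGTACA
The other 9 genes shared at most 1.35% of their exon bases with another gene of the table.

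Total counts were 19309576 to 19700249 per library, of which 17068 to 20286 came from the 10 genes. Levels are given as TMM-scaled counts per 1000000 (CPM), as the mean ± SD of 3 libraries per group where no single values are shown. Over whole genes, Kdm1a fell from 73.7 ± 3.95 to 38.6 ± 1.29 CPM. Kdm5c ranged from 77.2 to 82.8 CPM in WT against 65.3 to 74.3 CPM in KO, every KO library being below every WT library, and did not pass the test (adjusted p = 0.143). In edgeR's quasi-likelihood test 6.95% of all genes passed at an adjusted p of 0.05, 995 higher and 177 lower in KO. That split was 847 and 1407 after a plain loess correction for GC content and 886 and 757 after one for length. It was 1003 and 238 or 1068 and 229 when the same corrections were made robust to outlying genes and also centred in each library. These are called robust here, and robustness and centring were not tried apart. The hippocampal excitatory markers summed to 6640 to 7040 CPM in WT and 6340 to 6910 CPM in KO, with 8 of 8 detected. Members of this list went opposite ways in edgeR's test. Neurod6 was lower in KO (-21%, adjusted p = 0.00332) and Spink8 higher (112%, adjusted p = 1.17e-05), and the others did not pass. Summed markers of astrocytes (2230 to 2610 against 2740 to 2780 CPM), microglia (250 to 287 against 292 to 328 CPM) and oligodendrocytes (4900 to 5340 against 5560 to 6210 CPM) were higher in each KO library than in any WT library. So were those of oligodendrocyte precursors (190 to 210 against 214 to 236 CPM) and of choroid plexus (32.4 to 47.4 against 61.8 to 128 CPM). Of the single markers in these lists only Gfap, Mbp and Kl passed the test, each higher in KO. Kl stood at 20.4 to 23.0 CPM in WT and 55.1 to 61.8 CPM in KO. It made up most of the lowest KO sum of choroid plexus. The other lists overlapped between groups or touched at their ends, with interneurons at 809 to 851 against 770 to 841 CPM. The part of cell composition in the results on the 10 genes was not tested. In bulk tissue, fewer cells of a type and less RNA per cell cannot be told apart.

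WT replicate 2 stood apart in long transcripts. Of the 10% of tested genes with the greatest exon length (at least 9.57 kb, 1682 genes), 47% had their highest level there, against 22.9% of all genes. This library had the highest level of all 6 enzymes, so folds of the enzymes are given with and without it. Leaving out the highest WT library must raise a fold of KO over WT, so only the size of that shift is informative.

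No gene of the set passed the test. With edgeR's quasi-likelihood method 0 of the 10 were called in either direction, beside 6.95% of all genes, and DESeq2 and limma-voom also called 0. The libraries of the groups did not overlap for 1 of the 10, lower in KO, where they did not overlap for 25.2% of all genes (11.2% lower and 14% higher). At an unadjusted p under 0.05 there was 1, Cxxc1, where 20.2% of all genes lay below that value. The log2 fold of KO over WT ranged from -0.18 to 0.04. It was below 0 for 8 of the 10 and for 8736 of all 16861 genes. The median was -0.08, against a median of -0.01 over all genes. Without WT replicate 2 the median of the 10 was -0.02, with 7 below 0, and that of all genes was -0.01. The 95% intervals of the 10 differences lay between -22.3% and 13.7%, so a change of the size seen for Kdm1a (-47.7%) lies outside each of them. Adjusted p-values ran from 0.118 to 0.939.

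**Figure D1:**
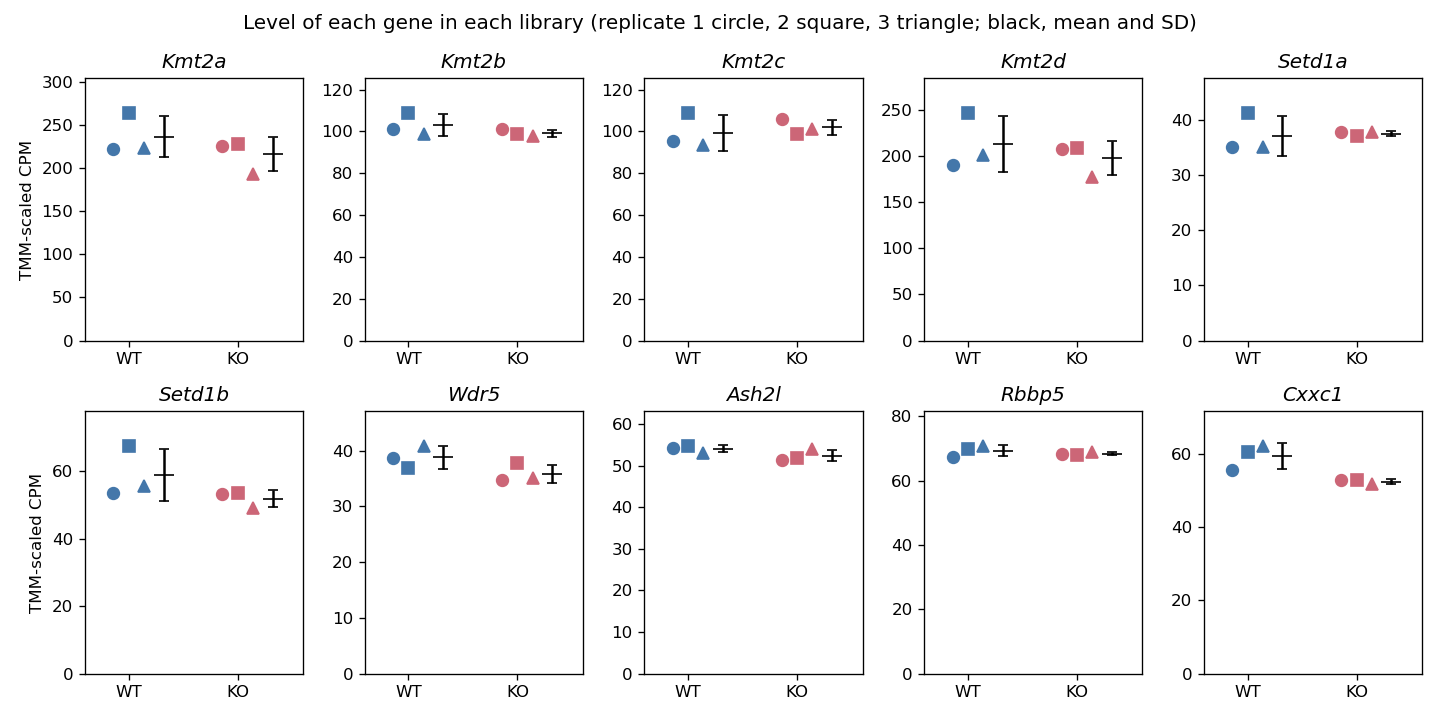
TMM-scaled CPM (y axis, from 0) of the 10 genes in the 3 WT and 3 KO libraries, 1 point per library, with the mean and SD in black. The groups overlap in 9 genes, and in Cxxc1 the KO libraries, at most 52.9 CPM, lie below the WT libraries, at least 55.6 CPM.

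KMT2A and KMT2B (MLL1 and MLL2) act with menin at promoters, KMT2A being best known for maintaining Hox gene expression and KMT2B for trimethylating promoters of developmental genes. Kmt2a (ENSMUSG00000002028, chromosome 9, 44803355 to 44881296, minus strand, GRCm38) measured 222, 264 and 223 CPM in the WT libraries and 225, 228 and 193 CPM in the KO libraries. WT replicate 2 was the highest and KO replicate 3 the lowest, and the other 4 libraries lay together. The difference was -8.83% (95% interval -19.1 to 2.79%, log2 fold -0.13, SE 0.0804, adjusted p = 0.388), and the log2 fold was -0.05 without WT replicate 2.

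Kmt2b (ENSMUSG00000006307, chromosome 7, 30568858 to 30588726, minus strand) stood at 101, 109 and 98.9 CPM in the WT libraries and at 101, 98.7 and 97.8 CPM in the KO libraries. Its libraries other than WT replicate 2 spanned little more than 3 CPM. The difference was -3.84% (interval -12.1 to 5.21%, adjusted p = 0.658), and the log2 fold moved from -0.06 to -0.01 without WT replicate 2. It was -0.25 with an adjusted p of 0.0219 after the plain GC correction and -0.11 with an adjusted p of 0.359 after the robust one.

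KMT2C and KMT2D (MLL3 and MLL4) are the main monomethyltransferases of enhancers and travel with KDM6A, PAXIP1, PAGR1 and NCOA6. Kmt2c (ENSMUSG00000038056, chromosome 5, 25271798 to 25498783, minus strand) had levels of 95.5, 109 and 93.4 CPM in WT, against 106, 98.6 and 101 CPM in KO. The KO libraries fell inside the WT range. The difference was 2.55% (interval -7.47 to 13.7%, adjusted p = 0.822), with a log2 fold of 0.04, or 0.11 without WT replicate 2.

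Kmt2d (ENSMUSG00000048154, chromosome 15, 98831669 to 98871204, minus strand), the gene mutated in most people with Kabuki syndrome, had the widest spread of the 10. Its WT libraries stood at 190, 247 and 201 CPM and its KO libraries at 208, 209 and 177 CPM, with a coefficient of variation of 14.2% among the WT libraries. The groups overlapped. The difference was -6.81% (interval -18.9 to 7.03%, log2 fold -0.10, adjusted p = 0.593), and the sign turned without WT replicate 2 (log2 fold 0.02).

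SETD1A and SETD1B deposit much of the promoter trimethylation of the cell, in complexes with CXXC1 and WDR82. Setd1a (ENSMUSG00000042308, chromosome 7, 127776670 to 127800122, plus strand), a gene in which truncating variants raise the risk of schizophrenia, had levels of 35.1, 41.3 and 35.0 CPM in WT, against 37.7, 37.0 and 37.8 CPM in KO. Here too the KO libraries lay inside the WT range. The difference was 1.05% (interval -9.99 to 13.4%, adjusted p = 0.939), with a log2 fold of 0.02, or 0.10 without WT replicate 2 (adjusted p = 0.475).

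Setd1b (ENSMUSG00000038384, chromosome 5, 123142193 to 123168629, plus strand) had the largest difference among the enzymes. Its WT libraries stood at 53.4, 67.6 and 55.5 CPM and its KO libraries at 53.3, 53.4 and 49.0 CPM. WT replicate 1 and KO replicates 1 and 2 lay at nearly the same level, so the groups met at their ends. The difference was -11.8% (interval -22.3 to 0.145%, log2 fold -0.18, SE 0.0849) and did not pass (adjusted p = 0.254). Without WT replicate 2 the log2 fold was -0.07. It was -0.37 with an adjusted p of 0.0158 after the plain GC correction and -0.23 with an adjusted p of 0.15 after the robust one.

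**Figure D2:**
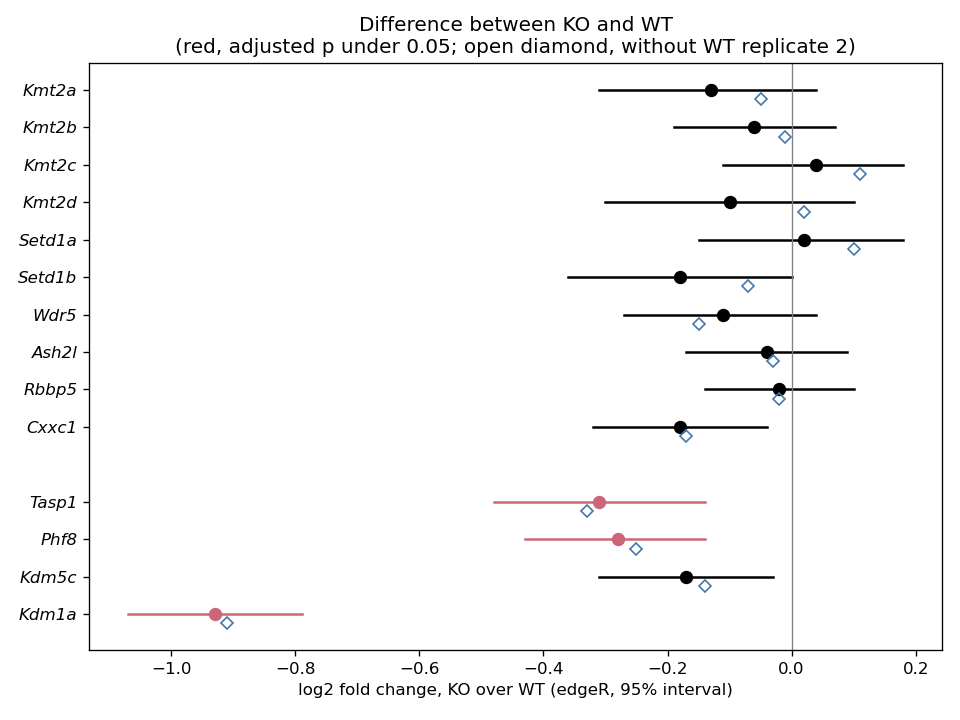
Log2 fold change of KO over WT (x axis) with 95% intervals from edgeR for the 10 genes and, below the gap, for Tasp1, Phf8, Kdm5c and Kdm1a, where red marks an adjusted p under 0.05 and open diamonds the fold without WT replicate 2. The intervals of 9 of the 10 genes include 0, Cxxc1 being the exception. Leaving out the library, the highest of all 6 enzymes, necessarily moves their folds towards higher values in KO.

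The core subunits Wdr5, Ash2l and Rbbp5 had coefficients of variation of 1.59 to 5.2% among the WT libraries and 0.677 to 4.54% among the KO libraries. Those of the enzymes were 5.27 to 14.2% in WT, where replicate 2 stood apart, and 1.14 to 9.18% in KO. WDR5 is the beta-propeller protein that holds the SET domain to the module. Wdr5 (ENSMUSG00000026917, chromosome 2, 27515157 to 27536535, plus strand) stood at 38.6, 36.8 and 40.9 CPM in the WT libraries and at 34.8, 37.7 and 35.1 CPM in the KO libraries. KO replicate 2 lay above WT replicate 2, the others below the WT range. The difference was -7.55% (interval -16.9 to 2.82%, adjusted p = 0.411).

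ASH2L and RBBP5 form the pair that activates the SET domain. Ash2l (ENSMUSG00000031575, chromosome 8, 25815996 to 25847694, minus strand) had levels of 54.2, 54.9 and 53.2 CPM in WT, against 51.4, 52.0 and 54.0 CPM in KO, with a difference of -2.94% (interval -11.2 to 6.1%, adjusted p = 0.749). Rbbp5 (ENSMUSG00000026439, chromosome 1, 132477365 to 132505659, plus strand) stood at 67.4, 69.7 and 70.9 CPM in the WT libraries and at 68.3, 68.0 and 68.9 CPM in the KO libraries. Its KO libraries had the smallest coefficient of variation in the set, 0.677%, and lay inside the WT range. Its difference was -1.34% (interval -9.26 to 7.28%, adjusted p = 0.888), with the smallest SE of the log2 fold in the set, 0.0561. Dpy30, the remaining subunit of the module and named here for that role, averaged 16.5 ± 1.85 CPM across WT against 15.6 ± 0.798 CPM across KO (adjusted p = 0.708).

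Cxxc1 was the gene of the set whose groups did not overlap. CXXC1 (CFP1) targets SETD1 complexes to CpG islands. Cxxc1 (ENSMUSG00000024560, chromosome 18, 74216124 to 74221496, plus strand) had levels of 55.6, 60.4 and 62.2 CPM in WT, against 52.7, 52.9 and 51.6 CPM in KO. Each KO library lay below each WT library, which held in the same direction for 11.2% of all genes tested. The difference was -11.8% (interval -19.8 to -3.03%, log2 fold -0.18, SE 0.0637), with an unadjusted p of 0.0132 and an adjusted p of 0.118. The log2 fold was nearly the same without WT replicate 2 (-0.17), which was the middle WT library for this gene. It was -0.23 without WT replicate 1 and -0.15 without WT replicate 3. As the groups did not overlap, leaving out 1 library could hardly turn its sign. In all 17 alternatives it kept its sign, between -0.35 and -0.15. Cxxc1 passed after the plain corrections for GC content (adjusted p = 0.00147) and length (0.0165) and after the robust GC correction (0.031), but not after the robust length correction (0.0836). Over the alternatives as a whole its adjusted p ran from 0.00147 to 0.351, the latter without KO replicate 3.

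The enzymes shared a peak in WT replicate 2 and differed in where they were lowest. In WT replicate 2 the log2 level lay above the gene's mean over the 6 libraries by 0.29 for Setd1b, 0.27 for Kmt2d and 0.23 for Kmt2a. It lay above by 0.15 for Setd1a, 0.12 for Kmt2c and 0.11 for Kmt2b. The median deviation in this library was 0.08 for the longest 10% of genes and -0.08 for the shortest 10%. Kmt2a, Kmt2d and Setd1b also had their lowest values in KO replicate 3, at -0.22, -0.21 and -0.17, where the longest 10% of genes stood at -0.03. Kmt2b was lowest there too, at -0.05, but Kmt2c (0.01) and Setd1a (0.02) were not, and both had their lowest value in WT replicate 3. Of the subunits, Cxxc1 lay 0.12 above its mean in WT replicate 2, as far as Kmt2c, and was higher still in WT replicate 3 (0.16). Ash2l had its highest value in WT replicate 2, at 0.04, Rbbp5 stood at 0.02 and Wdr5 at -0.02. The longest 10% of genes include Kmt2a, Kmt2b, Kmt2c, Kmt2d and Setd1b from the set, with 9.60 to 20.29 kb of annotated exons, while Cxxc1, Rbbp5 and Wdr5 have 3.60 to 3.93 kb. The part of transcript length in the pattern was not tested.

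**Figure D3:**
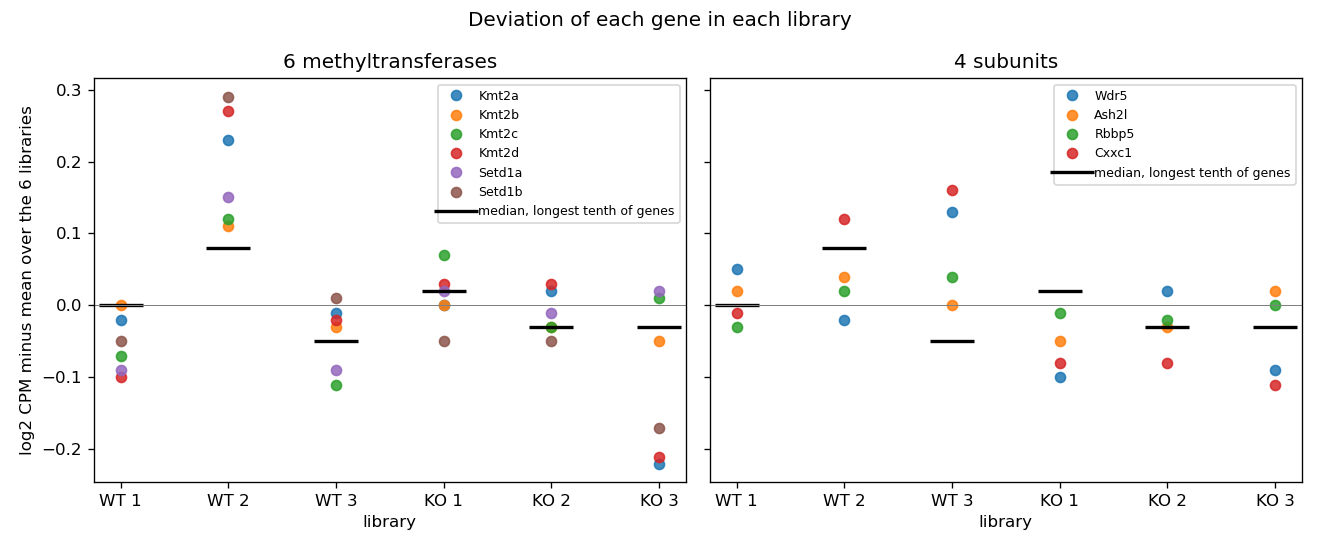
Log2 CPM of each gene minus its mean over the 6 libraries (y axis) by library (x axis), for the 6 methyltransferases on the left and the 4 subunits on the right, with the median of the longest 10% of tested genes as a black bar. All 6 methyltransferases lie above the bar of 0.08 in WT replicate 2, and Kmt2a, Kmt2d and Setd1b lie below -0.15 in KO replicate 3.

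Outside the set, the genes whose level followed the mean of the 6 enzymes most closely over the 6 libraries were Ylpm1, Ccnj, Kmt2e, Fbxl14 and Rin2, among 10330 genes with at least 10 CPM. Closeness was the root mean square difference of the log2 deviations, 0.0103 for Ylpm1 and 0.0211 to 0.0231 for the other 4, against a median of 0.127 over the genes searched. Kmt2e encodes a further SET-domain protein of the KMT2 family, which is not known to have robust methyltransferase activity. Its level was 0.21 above its mean in WT replicate 2 and 0.11 below it in KO replicate 3. These matches are a description over 6 libraries of the same experiment.

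Per kilobase of annotated exon, on which levels of different genes can be set side by side, Rbbp5 was the most abundant of the 10, with Kmt2c and Setd1b the least. In WT the mean was 17.6 ± 0.452 CPM per kb for Rbbp5, 15.2 ± 0.882 for Cxxc1 and 14.2 ± 1.41 for Kmt2a, the last of these not separated from Cxxc1 beyond the spread of the WT libraries. Wdr5 (10.8 ± 0.56), Kmt2b (10.7 ± 0.566) and Kmt2d (10.7 ± 1.52) formed a group whose ranges overlapped. Ash2l (6.03 ± 0.0958), Setd1a (5.46 ± 0.531), Kmt2c (4.9 ± 0.422) and Setd1b (4.87 ± 0.635) formed the lowest group, each overlapping its neighbour in the order. In KO the order was the same except that Kmt2b (10.3 ± 0.161) stood above Wdr5 (9.96 ± 0.452). The order depends on the length used. Setd1a shares 3.24 kb of exon with no other gene. With all of its counts divided by that length, its level was 11.5 ± 1.11 CPM per kb in WT and 11.6 ± 0.132 in KO. This lay between Kmt2a and Wdr5, and holds only if no read of the shared exons was counted for Setd1a. Over the longest protein-coding transcript Ash2l measured 16.3 ± 0.26 in WT and stood below Cxxc1 (22.7 ± 1.32) and Rbbp5 (20.5 ± 0.526).

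**Figure D4:**
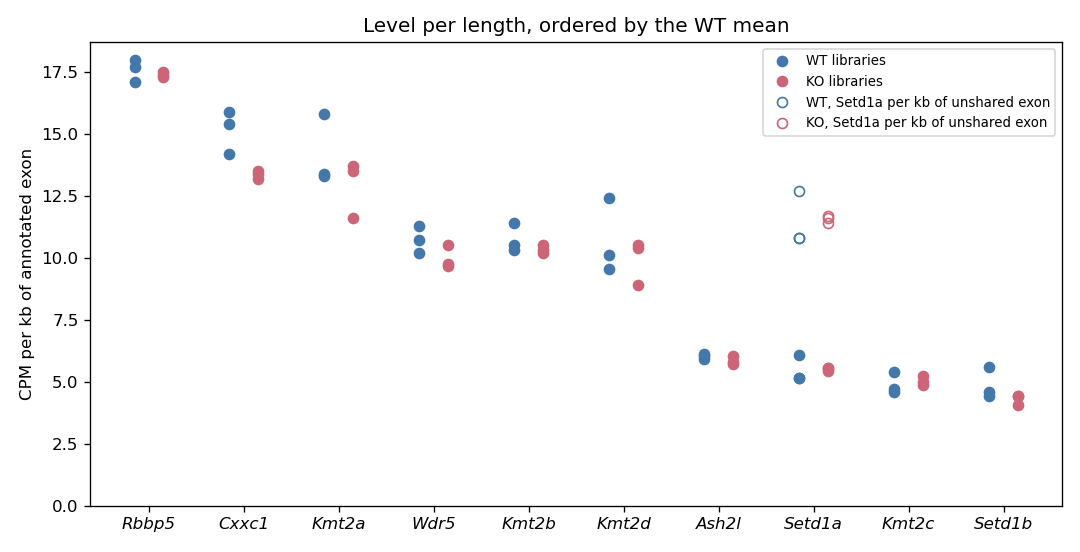
CPM per kilobase of annotated exon (y axis, from 0) of the 10 genes ordered by their WT mean, 1 point per library. Open points give the same counts of Setd1a per kb of its unshared exon. Rbbp5 is highest in every library, at 17.1 to 18.0, and the open points of Setd1a, at 10.8 to 12.7, lie well above its filled points at 5.15 to 6.08.

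The enzymes were also set against each other. Of the summed level per kb of the 6 enzymes, Kmt2a made up 27.9 ± 0.0708% in WT and 26.9 ± 1.16% in KO, Kmt2b 21.2 ± 1.01 and 21.5 ± 0.867%, and Kmt2d 20.9 ± 0.942 and 20.7 ± 0.909%. Setd1a made up 10.8 ± 0.0657 and 11.5 ± 0.674%, Kmt2c 9.64 ± 0.197 and 10.5 ± 0.571%, and Setd1b 9.57 ± 0.31 and 8.95 ± 0.0467%. These shares are over all annotated exons, and the length used for Setd1a moves them. With the same counts per kb of exon shared with no other gene, Setd1a made up 20.1 ± 0.11% in WT and 21.4 ± 1.11% in KO. Kmt2c then made up 8.73 ± 0.173 and 9.41 ± 0.459%, and Setd1b 8.55 ± 0.281 and 7.94 ± 0.0608%. With either length the share of Setd1a was higher in each KO library than in any WT library (11.1 to 12.3 against 10.7 to 10.8% over all exons) and that of Setd1b lower (8.9 to 8.99 against 9.27 to 9.89%). The share of Kmt2c separated the groups over all exons (9.88 to 11.0 against 9.5 to 9.87%) and overlapped over unshared ones. That of Kmt2a was lower in each KO library over unshared exons (22.5 to 24.8 against 24.9 to 25.0%), and over all exons the groups met at 27.8%. Shares of one sum move together and were not tested. The summed level itself was 50.8 ± 5.04 CPM per kb in WT and 48.0 ± 2.4 in KO.

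Among the 3 pairs of closest relatives, 1 ratio separated the groups. The ratio of Setd1b to Setd1a, per kb, was 0.856, 0.921 and 0.893 in WT and 0.796, 0.812 and 0.729 in KO. The groups did not overlap, and the two-sided exact permutation p was 0.1 (n = 3 each), the smallest that 3 against 3 allows, or 0.3 adjusted over the 3 ratios. With the same counts per kb of exon shared with no other gene the ratio was 0.425 ± 0.0156 in WT and 0.372 ± 0.0209 in KO. Again there was no overlap, since the length changes every library by the same factor. The ratio of Kmt2a to Kmt2b was 1.32 ± 0.0632 and 1.25 ± 0.102 (exact permutation p = 0.5, n = 3 each), and that of Kmt2d to Kmt2c 2.17 ± 0.139 and 1.98 ± 0.19 (exact permutation p = 0.2, n = 3 each), with overlap in both.

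Base composition moved with genotype over the genes tested, and the 10 genes sit at different places on that scale. Kmt2b, Kmt2d, Setd1b and Cxxc1 belong to the 10% of genes with the highest GC content in their longest coding transcript (58.2% or more), in which 15.7% of genes were called higher and 0.951% lower in KO and the median log2 fold was 0.06. Their own folds, -0.06, -0.10, -0.18 and -0.18, all lay below that median. Kmt2c and Rbbp5, at 46.3 to 48.1% GC, belong to a bin of the same size with 3.69% called higher, 0.773% lower and a median of -0.02, and their folds were 0.04 and -0.02. Kmt2a (log2 fold -0.13) and Wdr5 (-0.11) belong to a bin with a median of 0, and Ash2l (-0.04) to another with a median of 0. Setd1a (0.02) belongs to one with a median of 0.04. In the longest 10% of genes 3.57% were called higher, 1.43% lower, and the median was -0.04.

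The wider H3K4 pathway was described with 5 lists of 53 other genes, of which 52 could be tested. In edgeR's quasi-likelihood test 0 were called higher and 3 lower in KO (5.77%, beside 5.9% higher and 1.05% lower of all genes). Kdm1a, deleted by design, is among the genes called, and without Kdm1a and Kdm5c 2 of 50 were lower (4%). DESeq2 and limma-voom also called 0 higher and 3 lower of the 52. At an unadjusted p under 0.05 there were 2 higher and 11 lower of the 52, or 2 and 9 of the 50, where 12.6% of all genes were higher and 7.66% lower. The median log2 fold was -0.07, and 42 of the 52 were below 0, against 8736 of all 16861 genes. The 3 that fell were Kdm1a, Tasp1 and Phf8.

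Among accessory subunits and partners of the KMT2 and SETD1 complexes, Dpy30 included, 1 of 13 tested genes fell and 0 rose (7.69% called). Of all genes 1.05% were called lower and 5.9% higher. The median log2 fold of this list was -0.02. Tasp1 encodes taspase 1, the protease that cleaves KMT2A and KMT2B into the fragments that form the working enzymes. It measured 23.2, 22.7 and 23.5 CPM in the WT libraries and 19.3, 18.4 and 18.2 CPM in the KO libraries. Each KO library lay below each WT library by at least 3 CPM. The difference was -19.5% (interval -28.5 to -9.35%, log2 fold -0.31, SE 0.0793, adjusted p = 0.0286). The call was lost with a replicate block (adjusted p = 0.0538) and without WT replicate 1 (0.074), KO replicate 1 (0.0627), KO replicate 2 (0.102) or KO replicate 3 (0.139), the log2 fold staying between -0.40 and -0.29 in all 17 alternatives. Men1, the menin gene (65.2 ± 3.0 and 66.8 ± 1.55 CPM), and Wdr82 (168 ± 4.01 and 168 ± 4.09 CPM) were named for their roles and had adjusted p-values of 0.806 and 0.988. Pagr1a was listed at 0 in all 6 libraries, and 98.7% of its exon bases are shared with Gm42742.

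Of 7 H3K4 demethylases Kdm1a fell and 0 rose (median log2 fold -0.09). Of 15 proteins that read H3K4 methylation 1 fell and 0 rose (median -0.04). The lists had 14.3% and 6.67% of their genes called, where 1.05% of all genes were called lower and 5.9% higher. PHF8 binds trimethylated H3K4 and demethylates other histone residues. Phf8 stood at 40.8, 43.7 and 40.5 CPM in the WT libraries and at 35.4, 33.9 and 33.6 CPM in the KO libraries. The groups did not overlap, and the difference was -17.8% (interval -25.7 to -9.06%, adjusted p = 0.0204). This call was lost without WT replicate 2 (adjusted p = 0.0521), KO replicate 2 (0.0891) or KO replicate 3 (0.123). The log2 fold was -0.28, and between -0.33 and -0.25 in all 17 alternatives.

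Of the 7 other SET and SMYD genes linked to H3K4, 0 passed in edgeR, DESeq2 or limma-voom. In edgeR's test 2 had an unadjusted p under 0.05, where 20.2% of all genes lay below that value. These 2 genes had the smallest p-values of the list. Smyd1, a muscle gene, averaged 2.19 ± 0.625 CPM across WT against 3.13 ± 0.451 CPM across KO (adjusted p = 0.199), and Prdm9, the meiotic H3K4 methyltransferase, 3.71 ± 0.528 and 2.79 ± 0.351 CPM (adjusted p = 0.21). Of the 10 genes of H2B ubiquitination and the PAF1 complex, which act upstream of SETD1-type methylation, 0 passed. In this list 1 had an unadjusted p under 0.05, beside the same 20.2% of all genes. The smallest p-values there belonged to Cdc73 (54.4 ± 5.17 and 48.6 ± 1.59 CPM, adjusted p = 0.237) and Paf1 (71.7 ± 2.94 and 66.8 ± 1.73 CPM, adjusted p = 0.372).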

How the data were processed

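The authors deposited whole-number gene counts for each of the 6 libraries over 48795 Ensembl identifiers. The submitters' processing notes list cutadapt 1.18, HISAT2 and HTSeq 0.11.1 and the build GRCm38 (mm10). Neither the annotation release nor the strand setting is given there. Reads of overlapping genes may thus be lost or shared.

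Genes were filtered with filterByExpr (minimum count 10, minimum total 15), scaled with TMM and tested with edgeR's quasi-likelihood test on group alone, with Benjamini-Hochberg adjustment over all 16861 genes tested and a threshold of 0.05. Adjusted p-values are from that test unless another is named. SEs were derived from the F statistic, as the absolute log2 fold over its root. Positions, exon lengths and GC content came from GENCODE M21. The script was tested on simulated data. The alternatives tried were scaling by RLE or by library size, the tools DESeq2 and limma-voom, no filter or one of 1 CPM in 3 libraries, and loess corrections (span 0.3) for GC content and length. Further ones were a block on replicate number, the omission of single libraries, thresholds of 0.01 and 0.1, and transcript length for levels per kb. Robust, centred loess corrections, coding-transcript length, unshared exon length and the lists without Kdm1a and Kdm5c were added after seeing the data.

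Genes named were all 10 of the set, Kdm1a and Kdm5c, those past the threshold in each pathway list or else the 2 with the smallest p, and the 5 closest in pattern. The members and lists were chosen with earlier results of these data known. The versions were 4.0.16 for edgeR, 3.58.1 for limma and 1.42.0 for DESeq2, all under R 4.3.3.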

Additional observations from a re-analysis of the deposited data

How the results depend on the processing

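In the alternatives other than the corrections for GC content and length, 0 of the 10 genes were called in either direction, and with a replicate block the genes called were 960 higher and 149 lower, 0 of the 10 and 2 of the pathway lists. Same-numbered WT and KO libraries did not deviate together (correlations of 0, -0.01 and -0.02, against -0.12 to 0.13 for the others). The labels do not say what the numbers mark, and these correlations cannot settle whether they mark a shared litter or batch. Genes called lower, 177 in the report, numbered 279 with no filter, 1407 after plain GC correction, 757 after plain length correction, 47 and 395 at thresholds of 0.01 and 0.1 (where 614 were higher at 0.01), and 48 to 323 on leaving out 1 library. The plain corrections moved the median log2 fold of all genes from -0.01 to -0.06. With the robust ones it was 0. These also centred the correction of each library on its median, so a value near 0 was largely set by the method. Members called lower were 3 after plain GC correction (Kmt2b, Setd1b, Cxxc1), where 1407 of all 16814 genes were called lower. There was 1 after plain length correction, beside 757 of 16820 genes, and 1 after robust GC correction, beside 238 of 16814 (Cxxc1 in both). Pathway genes called lower were 10 and 7 after the plain corrections and 1 to 5 on leaving out 1 library, with 0 to 1 higher. Signs turned for Setd1a at -0.13 and -0.01 (plain GC and length) and -0.02 (robust GC), and for Rbbp5 at 0.00 (library size alone). On leaving out 1 library they turned for Setd1a (-0.03 to 0.10), Kmt2c (-0.01 to 0.11) and Kmt2d (-0.18 to 0.02). Ordered by the longest annotated or the longest coding transcript, 1 of 10 genes kept its rank by level, and 5 did over unshared exons. The cause of these changes was not tested. With 672 to 5046 counts per gene and library, counting error as well as the spread between libraries enters these comparisons.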
